A study of Mus musculus with 6 samples.

Results

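DNA methylation at the 4 Hox gene clusters was examined in 3 kinds of mouse pluripotent stem cells. The members were the 38 Hox genes listed for the Hoxa cluster on chromosome 6 (10 genes), the Hoxb cluster on chromosome 11 (10), the Hoxc cluster on chromosome 15 (9) and the Hoxd cluster on chromosome 2 (9), of 21646 protein-coding genes in all. The rule for membership uses the name and position of a gene and no methylation value. Each gene was described by its promoter, the 1000 bp upstream of the start of 1 transcript with the 100 bp that follow it. It was also described by its gene body, the whole annotated span of the gene. That span can reach upstream of the start used for the promoter, as at Hoxa10 and Hoxd4, and then holds the promoter too. Each cluster was also cut into 2 kb tiles from its first to its last Hox gene, 246 tiles in all, with 197 further tiles in the 50 kb on each side, out of 1279180 tiles with a CpG in the genome.

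The study compared advanced pluripotent stem cells (ASCs), naive embryonic stem cells (ESCs) and primed epiblast stem cells (EpiSCs), with 2 libraries of whole-genome bisulfite sequencing each. By the methods of the study, ASCs came from activin and bFGF cultures of blastocysts that were moved to a medium with activin A, BMP4, the Wnt agonist CHIR99021 and LIF. Its account of the methylation data describes the ESCs as kept in 2i/LIF and the cells as female. The labels give the strain 129S2/SvPasCrl and a wild type genotype for all 6 libraries, whereas the methods describe ASC lines with GFP reporters from embryos of mixed background. It is not stated which line gave which library, at what passage, or whether the replicates were separate lines. The p-values therefore apply to these libraries and say nothing about other lines. For promoters, gene bodies and tiles they rest on counts of reads and on a dispersion between libraries. That dispersion leans on an estimate shared by all regions of the same kind, most of all for tiles.

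Hox genes encode homeodomain transcription factors that give cells their position along the body axis. Their order along each cluster follows the order in which they are used from the hindbrain to the tail, so that genes with low numbers act anteriorly and genes with high numbers act in the trunk, limbs and genital region. In pluripotent cells the clusters are known as classical targets of Polycomb repression, and they are rich in CpG, the dinucleotide at which mammalian DNA is methylated.

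The Hox clusters were less methylated than the DNA beside them in all 6 libraries, and Hoxb stood apart from the other clusters in EpiSCs. Pooled over the 11782 CpG sites inside the clusters, the methylation level was 17.6% and 17.8% in the ASC libraries (replicate 1, then replicate 2, here and below), 5.88% and 5.75% in ESCs, against 20.1% and 18.8% in EpiSCs. The flanks were at 44.5% and 45.6%, 12.8% and 13%, and 53.4% and 52.4% respectively. Over chromosomes 1 to 19 and X the means were 60% ± 0.26, 18.1% ± 0.25 and 80.6% ± 0.52 (SD, n = 2 each). ASCs and EpiSCs thus lay far apart in the genome as a whole and close together inside the Hox clusters. The groups differed inside the clusters and in the flanks with an exact permutation p of 0.0667, the smallest that the 15 assignments of 6 libraries to 3 groups allow, so this test cannot fall below 0.05.

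The clusters differed in the order of ASCs and EpiSCs. Hoxa was at 13.8% and 13.4% in ASCs against 11.4% and 11.3% in EpiSCs. Hoxd was at 15.9% and 16.4% in ASCs against 14.6% and 13.3% in EpiSCs. In both clusters each ASC library was above each EpiSC library, which was the reverse of their flanks and of the genome as a whole. Hoxc was at 16.1% and 15.9% in ASCs and 16.0% and 14.9% in EpiSCs, so the groups overlapped there (exact permutation p = 0.133 over the 3 groups). Hoxb was at 22.7% and 24.0% in ASCs and at 35.9% and 35.0% in EpiSCs. The level of Hoxb above the mean of the other 3 clusters was 8.10 points ± 0.94 in ASCs and 1.87 ± 0.31 in ESCs, against 21.9 ± 0.05 in EpiSCs (SD, n = 2 each, exact permutation p = 0.0667, the smallest possible). The test asks only whether this gap differs among the groups, whose levels differ over the whole genome too. It does not test whether Hoxb stands apart in EpiSCs.

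Part of the Hoxb level came from the long stretch between Hoxb13 and Hoxb9, which holds no other Hox gene. That stretch of 73.0 kb was at 39.5% ± 1.61 in ASCs and 10.4% ± 0.01 in ESCs, against 60.1% ± 0.50 in EpiSCs (SD, n = 2 each). The 97.8 kb from Hoxb9 to Hoxb1 were at 16.1% ± 0.71, 5.68% ± 0.40 and 25% ± 1.03. The gene-dense part of Hoxb therefore still had the highest EpiSC level of the 4 clusters. Relative to its own flanks, Hoxa was at 0.213 and 0.209 of the flank level in EpiSCs, 0.317 and 0.286 in ASCs and 0.398 and 0.387 in ESCs. Hoxd was at 0.315 and 0.307 in EpiSCs, 0.428 and 0.426 in ASCs, and 0.615 and 0.543 in ESCs. For Hoxb that ratio was 0.564 and 0.556 in EpiSCs, 0.445 and 0.476 in ASCs, and 0.503 and 0.470 in ESCs, where ASCs and ESCs overlapped (exact permutation p = 0.133). For Hoxc it was between 0.319 and 0.401 in all 6 libraries (exact permutation p = 0.133).

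**Figure D1:**
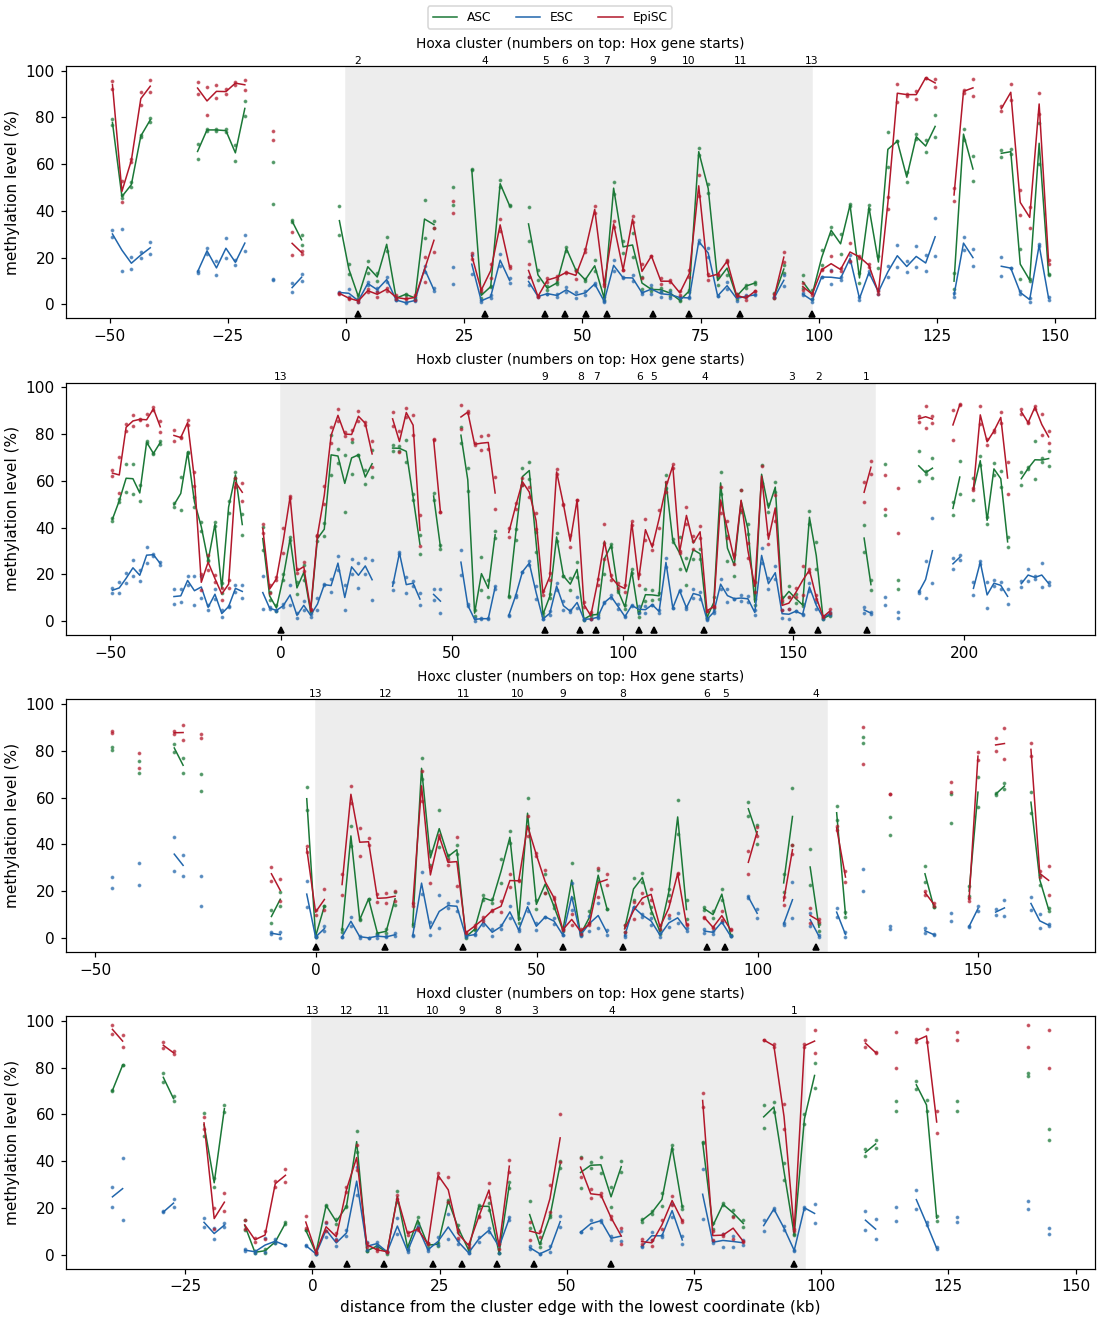
Methylation level (%) of 2 kb tiles along the Hoxa, Hoxb, Hoxc and Hoxd clusters (grey) and their 50 kb flanks, against the distance from the cluster edge in kb. Dots are libraries, lines join group means of neighbouring tiles with at least 40 observations in every library, and triangles mark the starts of Hox genes. The levels fall from the flanks into the clusters in all 3 groups. In Hoxb the stretch between Hoxb13 and Hoxb9 stays near flank level in EpiSCs (60.1% beside 63.3%).

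Low tiles took a larger share of each cluster than of the genome. A tile was counted as low when its level was under 15%. In EpiSCs, 58.0% and 62.0% of the Hoxa tiles were low, 14.8% and 17.0% of the Hoxb tiles, 37.3% in both libraries of the Hoxc tiles, and 46.9% and 51.0% of the Hoxd tiles, where 1.11% and 1.14% of all tiles were. The longest EpiSC run was in Hoxa and spanned 18 kb and 20 kb from 52160001 to 52178000 or 52180000 on chromosome 6 (GRCm38), over Hoxa2 and part of the Hoxa3 span. In replicate 1, 8 of 11965 runs in the genome were at least as long, itself included, and in replicate 2 it was 1 of 3 runs of the greatest length among 12200. The run begins where a stretch not analysed here ends, so it may be longer, and its length also depended on where tiles were placed, with a mean of 12 kb after a shift of the tiles by 1 kb. In ASCs the longest Hoxa run was 12 kb in both libraries and lay elsewhere, from 52224001 to 52236000 around Hoxa9 and Hoxa10. The longest ASC runs in Hoxb, Hoxc and Hoxd were between 4 and 8 kb, and 5827 of 25617 runs in the genome of ASC replicate 2 reached 4 kb. The ASC runs depended on the placing of tiles too. After the shift by 1 kb the mean longest ASC run of Hoxa was shorter than those of Hoxb and Hoxc.

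Cluster tiles with up to 80 CpG were lower than tiles of like CpG number in the genome, while CpG-dense promoters were not. Among tiles with 41 to 80 CpG, the 74 tiles in the clusters had medians of 12% in ASCs and 4.30% in ESCs, against 14.3% in EpiSCs, and the 30746 such tiles of the genome had medians of 42.8%, 12.2% and 90.2%. Among tiles with more than 80 CpG the 41 cluster tiles had medians of 3.38%, 1.67% and 5.60%, close to 2.48%, 1.16% and 7.15% over 8958 tiles. Among tiles with 21 to 40 CpG the 72 cluster tiles had medians of 34.5%, 10.4% and 38.5%, beside 69.8%, 20.6% and 92.5% over 244698 tiles. Among tiles with up to 20 CpG, the 29 cluster tiles had medians of 48.0%, 15.2% and 50.7%, beside 70.4%, 19.9% and 92.0% over 161020 tiles. For tiles, the gap to the genome was thus widest in EpiSCs and at intermediate CpG number. Promoters showed the reverse at high CpG number, where the 11 Hox promoters with 41 to 60 CpG had medians of 8.44%, 3.43% and 12.2%, above 2.37%, 0.926% and 8.89% over 4035 promoters. The 6 Hox promoters with more CpG were at 2.56%, 1.77% and 4.86%, above 0.758%, 0.624% and 2.62% over 3186 promoters. These medians are a description and were not tested.

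Tiles that were more methylated in ASCs than in EpiSCs, which were rare in the genome, lay in and beside the clusters. Here and below, a call stands for an adjusted p under 0.05 together with a gap of 20 percentage points or more between group means. Of the 216 cluster tiles tested, 10 were called higher in ASCs (0.100% of all 445422 tiles tested), and 9 of 122 flank tiles were as well. At an adjusted p under 0.05 with no minimum difference, 46 cluster tiles and 15 flank tiles were higher in ASCs (0.374% of all tiles). In the other direction 28 cluster tiles and 39 flank tiles were called lower in ASCs, against 53.5% of all tiles, and 76 and 75 were lower with no minimum difference (90.4%). The tiles were not matched by level. The EpiSC median was 18.6% in the clusters and 78.6% in the flanks, beside 92.1% over all tiles tested. Tiles near the latter have little room to be higher in ASCs, and tiles under 20% in EpiSCs cannot be called lower. Of the 28 called, 19 were in Hoxb (77 tiles tested), 5 in Hoxd (44), 3 in Hoxc (50) and 1 in Hoxa (45). Of the 19 in Hoxb, 9 lay in the stretch between Hoxb13 and Hoxb9 (30 tested).

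The greatest excess of ASCs over EpiSCs inside a cluster was in an intron of the Hoxa10 span, upstream of the start used for its promoter. Hoxa10 patterns the reproductive tract and hindlimb. The tile at 52238001 to 52240000 on chromosome 6 was at 51.5% and 47.7% in ASCs, 20.1% and 23.9% in ESCs, against 13.1% and 10.6% in EpiSCs, a difference of 37.8 points (adjusted p = 1.16e-11). Both EpiSC libraries were below both ESC libraries there, and all were below ASCs. A tile over an exon of Hoxd4 at 74728001 to 74730000 on chromosome 2 was at 40% and 35.3% in ASCs, 9.89% and 5.95% in ESCs, against 11.5% and 4.41% in EpiSCs (29.7 points, adjusted p = 4.43e-13). The other cluster tiles called higher in ASCs lay in the spans of Hoxa3 and Hoxa4, Hoxb3os, Hoxc4 to Hoxc6 and Hoxd3, with differences from 20.7 to 36.8 points.

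The greatest difference in the other direction was over Gm53, a gene model in the stretch between Hoxb13 and Hoxb9. Its exon tile at 96250001 to 96252000 on chromosome 11 was at 4.62% and 2.16% in ASCs, 0% and 1.42% in ESCs, against 75.2% and 76.1% in EpiSCs (−72.2 points, adjusted p = 3.81e-48). The intron tile at 96254001 followed with −62.4 points and the exon tile at 96252001 with −55.8 points. The tile at 96366001 to 96368000 on chromosome 11, over an exon of Hoxb1, was at 17.6% and 13.5% in ASCs, 3.01% and 3.79% in ESCs, against 63.0% and 68.6% in EpiSCs (−50.2 points, adjusted p = 1.15e-31). These tiles had 38 to 69 CpG each, ASCs were near ESCs in the first of them, and no ASC library reached an EpiSC library in any.

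In the flanks, 4 of the 5 tiles with the greatest differences were lower in ASCs. Beyond Hoxd1 on chromosome 2, the intergenic tiles at 74776001, 74778001 and 74790001 differed between ASCs and EpiSCs by −46.7, −39.1 and −41.1 points. The first of these was at 45.3% and 42.1% in ASCs and 88.9% and 91.9% in EpiSCs. Beyond Hoxa13, the intergenic tile at 52290001, whose nearest protein-coding gene was Evx1, differed by −36.9 points. The tile that was higher was intergenic, at 74650001 to 74652000 on chromosome 2, 991 bp from Evx2, an even-skipped homeobox gene beside Hoxd13. It was at 60.9% and 64.0% in ASCs, 11.9% and 13.3% in ESCs, against 18.7% and 26.2% in EpiSCs (40 points, adjusted p = 3.55e-09).

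**Figure D2:**
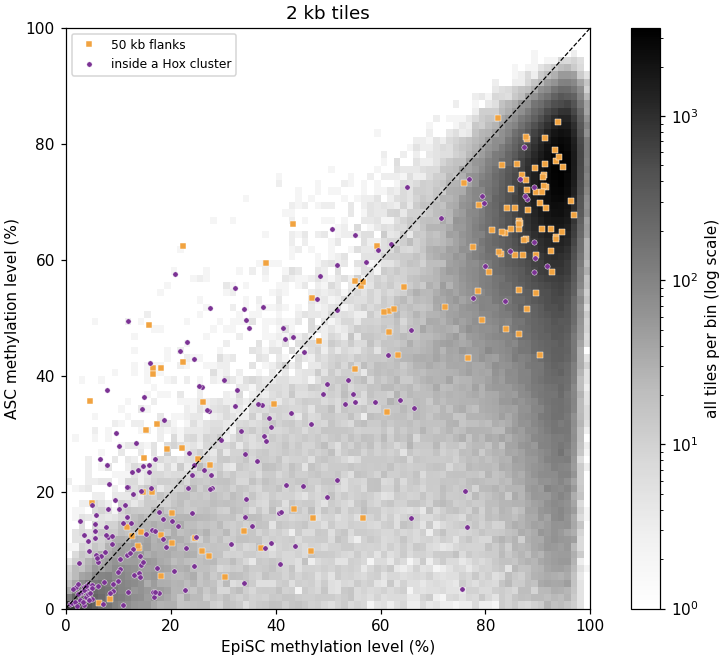
Group means of 2 kb tiles, EpiSC methylation level (%) on the x axis and ASC methylation level (%) on the y axis. Grey shading counts all 445422 tested tiles per bin on a log scale, circles are the 216 tested tiles inside Hox clusters and squares the 122 tested flank tiles, and on the dashed line both levels are equal.

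In ESCs the clusters held little methylation, with a median tile level of 6.47% (19.8% over all tiles tested). Among the cluster tiles tested, the highest ESC level was 25.3% and 37.5%, in a tile over an exon of Hoxd12 at 74676001 on chromosome 2. It was followed by an intergenic Hoxb tile at 96228001 with 28.9% and 29.4%, and by an intron tile of Hoxb3 at 96334001 with 25% and 31.1%. None of these 3 tiles passed the test between ASCs and EpiSCs, and the Hoxd12 tile was at 43.7% and 53.0% in ASCs and 46.7% and 36.2% in EpiSCs.

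Of the 38 Hox promoters, 33 had at least 40 observations in every library and were tested. Hoxa9, Hoxb2, Hoxb3, Hoxc5 and Hoxc6 had fewer, and their levels, from 5.88% to 45.5%, rest on 10 to 56 observations a library. The median of the tested Hox promoters was 5.85% in ASCs and 2.55% in ESCs, against 13% in EpiSCs, beside 4.69%, 1.54% and 14.0% over all 14424 promoters tested. Between ASCs and EpiSCs, 4 Hox promoters were called lower in ASCs (24.3% of all promoters) and 0 were called higher (0.166%) by the limma-moderated test. With no minimum difference 14 were lower (51.3%) and 2 were higher (0.887%).

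**Figure D3:**
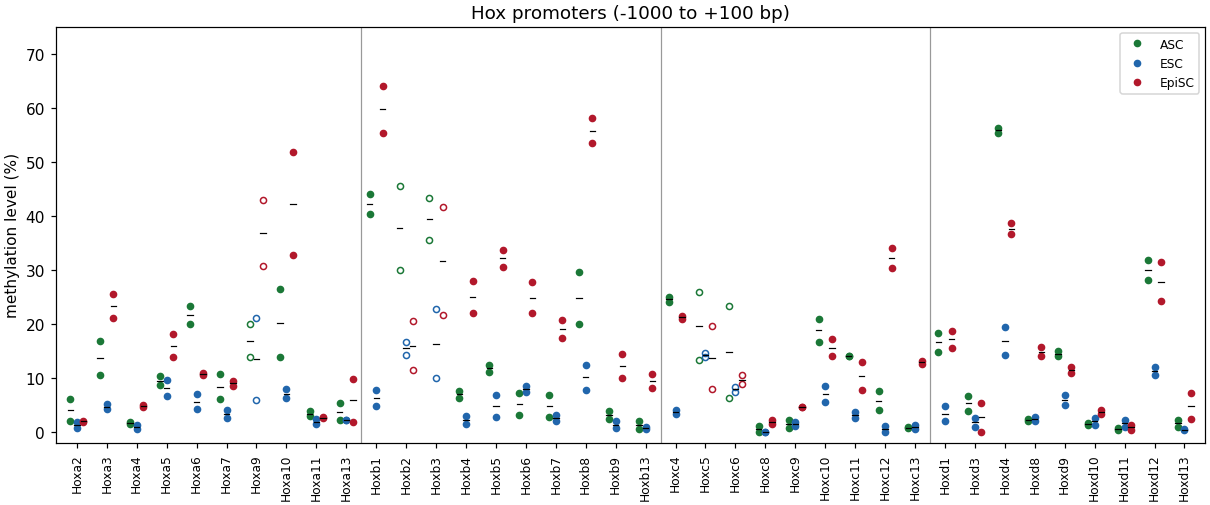
Methylation level (%) of each Hox promoter, ordered by cluster, in the 2 libraries of ASCs, ESCs and EpiSCs. Points are libraries, black bars are group means, and open points mark the 5 promoters with fewer than 40 observations in a library, while Hoxb8, Hoxb1, Hoxa10 and Hoxd4 have the highest EpiSC levels of those tested.

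The called promoters were those of Hoxb8, Hoxc12, Hoxa10 and Hoxb5. The promoter of Hoxb8, a trunk Hox gene (chr11:96280905-96282005, plus strand), was at 20% and 29.6% in ASCs, 12.5% and 7.81% in ESCs, against 53.5% and 58.1% in EpiSCs, a difference between ASCs and EpiSCs of −31.0 points (adjusted p = 0.00130). The promoter of Hoxc12, a posterior gene expressed in hair follicles (chr15:102935757-102936857, plus strand), was at 7.53% and 4.17% in ASCs, 1.10% and 0% in ESCs, against 34.0% and 30.4% in EpiSCs (−26.4 points, adjusted p = 0.000929). The 0% was 0 of 107 observations, which allows a level of up to 2.80%. In a window reaching 500 bp to either side of the start the Hoxc12 difference was −17.8 points, under the minimum for a call. In both promoters the ASC libraries lay nearer to ESCs than to EpiSCs, and the groups did not overlap.

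The promoter of Hoxb5 (chr11:96302512-96303612, plus strand), a gene used in lung and gut development, was at 12.5% and 11.2% in ASCs, 6.81% and 2.86% in ESCs, against 30.6% and 33.7% in EpiSCs (−20.3 points, adjusted p = 0.00120). It was just over the minimum difference, and was at −19.6 points without ASC replicate 2 and −18.7 points without EpiSC replicate 2. The neighbouring Hoxb6 promoter was at 3.16% and 7.33% in ASCs, 8.51% and 7.45% in ESCs, against 27.8% and 22% in EpiSCs. It was just under the minimum difference (−19.7 points, adjusted p = 0.000654), and within 500 bp of the start it differed by −12.0 points. Hoxb6 was called with libraries thinned to the shallowest (−21.0 points), without ASC replicate 2 (−21.7) and without EpiSC replicate 2 (−22.5). The promoter of Hoxa10 (chr6:52234839-52235939, minus strand) was at 13.9% and 26.5% in ASCs, 6.23% and 8.0% in ESCs, against 32.8% and 51.8% in EpiSCs (−22.1 points, adjusted p = 0.0126). Its replicates lay far apart, and the call was lost without ASC replicate 1 (−15.8 points, adjusted p = 0.253), without EpiSC replicate 2 (−12.6 points, adjusted p = 0.130) and with limma on M values (adjusted p = 0.0509). Within 500 bp of the start its difference was −9.63 points.

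Among the promoters tested, those of Hoxd4 and Hoxb1 had the highest ASC levels. Hoxd4, a gene of the neck vertebrae (promoter chr2:74726074-74727174, plus strand), was at 55.4% and 56.3% in ASCs, 19.5% and 14.2% in ESCs, against 36.6% and 38.7% in EpiSCs. ASCs exceeded EpiSCs by 18.2 points (adjusted p = 0.0209), below the minimum for a call, and exceeded ESCs by 39.0 points (adjusted p = 0.000293). The excess over EpiSCs no longer passed within 500 bp of the start (5.25 points, adjusted p = 0.232), nor without any 1 of the 4 ASC and EpiSC libraries (17.1 to 19.3 points, adjusted p = 0.0783 to 0.0960). The promoter of Hoxa6 was the other one higher in ASCs than in EpiSCs, with 23.3% and 20.1% in ASCs, 4.24% and 6.99% in ESCs, against 10.6% and 10.9% in EpiSCs (10.9 points, adjusted p = 0.00844). Hoxb1, which specifies a segment of the hindbrain (promoter chr11:96364752-96365852, plus strand), was at 44.1% and 40.4% in ASCs, 7.79% and 4.82% in ESCs, against 64.1% and 55.3% in EpiSCs. Its difference between ASCs and EpiSCs of −17.4 points did not pass (adjusted p = 0.0531), and in a window reaching 500 bp to either side of the start it was −47.6 points (adjusted p = 4.15e-05).

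The lowest EpiSC promoter levels were those of Hoxd11, Hoxc8 and Hoxa2. Hoxd11, which patterns the forearm, was at 0.699% and 0.327% in ASCs, 0.949% and 2.29% in ESCs, against 0.421% and 1.31% in EpiSCs, over at least 286 observations. Hoxc8, used in brachial motor neurons, was at 1.16% and 0% in ASCs, 0% in both ESC libraries, and 2.21% and 1.56% in EpiSCs. The observations behind the 0% values allow levels of up to 4.55% in ASC replicate 2 and up to 2.04% and 3.95% in the ESC libraries. Hoxa2, which shapes the branchial arches, was at 2.04% and 6.14%, 0.685% and 1.89%, and 1.94% and 2.08%. None of these promoters passed the test in any comparison.

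By cluster, 7 of the 8 Hoxb promoters tested were lower in ASCs than in EpiSCs at an adjusted p under 0.05, where 51.3% of all promoters were, with a median difference over the 8 of −17.8 points. The corresponding counts were 4 of 9 for Hoxa, 2 of 7 for Hoxc and 1 of 9 for Hoxd, with medians of −2.10, −1.30 and −0.354 points, beside −6.70 points over all promoters. The total of 14 was 9 without ASC replicate 1 and 9 without EpiSC replicate 1. By position, 1 of 5 anterior promoters (numbers 1 to 3), 8 of 13 central (4 to 8) and 5 of 15 posterior promoters (9 to 13) were lower in ASCs by the same rule. The central ones include Hoxb4 to Hoxb8 and the posterior ones Hoxb9 and Hoxb13, so the counts by position and by cluster overlap. Posterior promoters had the lowest medians, 3.39% in ASCs and 1.93% in ESCs, against 10.4% in EpiSCs, where anterior ones were at 13.6%, 3.43% and 17.2% and central ones at 8.44%, 3.71% and 19.1%. Promoters with more CpG were lower, with Spearman's rho across the 33 genes of −0.47 in ASCs and −0.25 in ESCs, against −0.49 in EpiSCs, where Pearson's r was −0.56, −0.40 and −0.57. The genes share libraries and are not independent, so no p is given.

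Sequences around the start are shown for 3 promoters with high EpiSC levels and for the low Hoxd11 promoter, to set their CpG content side by side. Each is the RefSeq sequence of 250 bases before to 50 after the start (GRCm38.p6, in the direction of the gene), with CpG in capitals. The table held a promoter for 22 of the 38 genes.
Hoxb8 (chr11:96281655-96281954, plus strand): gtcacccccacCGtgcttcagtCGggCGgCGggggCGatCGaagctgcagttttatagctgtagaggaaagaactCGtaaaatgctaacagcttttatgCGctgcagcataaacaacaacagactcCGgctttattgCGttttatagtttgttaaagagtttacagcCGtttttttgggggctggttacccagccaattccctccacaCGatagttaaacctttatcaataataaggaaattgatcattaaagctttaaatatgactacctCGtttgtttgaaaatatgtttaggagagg
Hoxb1 (chr11:96365508-96365807, plus strand): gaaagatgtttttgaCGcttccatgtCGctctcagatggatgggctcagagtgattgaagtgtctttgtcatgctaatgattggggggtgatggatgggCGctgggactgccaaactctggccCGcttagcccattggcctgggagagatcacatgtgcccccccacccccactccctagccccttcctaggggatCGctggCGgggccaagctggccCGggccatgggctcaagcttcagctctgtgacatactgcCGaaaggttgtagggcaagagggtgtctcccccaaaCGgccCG
Hoxa10 (chr6:52234890-52235189, minus strand): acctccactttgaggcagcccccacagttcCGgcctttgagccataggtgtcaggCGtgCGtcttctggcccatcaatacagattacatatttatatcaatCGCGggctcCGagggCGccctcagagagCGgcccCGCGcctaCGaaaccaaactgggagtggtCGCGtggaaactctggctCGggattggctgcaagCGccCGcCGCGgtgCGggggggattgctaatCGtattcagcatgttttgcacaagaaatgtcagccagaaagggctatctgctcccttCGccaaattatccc
Hoxd11 (chr2:74682073-74682372, plus strand): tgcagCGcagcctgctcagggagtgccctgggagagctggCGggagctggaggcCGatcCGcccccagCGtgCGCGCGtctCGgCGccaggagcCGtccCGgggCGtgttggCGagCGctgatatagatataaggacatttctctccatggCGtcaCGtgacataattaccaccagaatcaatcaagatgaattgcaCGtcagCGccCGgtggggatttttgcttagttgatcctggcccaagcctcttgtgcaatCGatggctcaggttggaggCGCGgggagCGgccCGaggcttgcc
The Hoxb8 sequence holds 13 CpG, Hoxb1 10, Hoxa10 21 and Hoxd11 25, and 37.9%, 43.5%, 24.8% and 18.4% of all 32851 promoters in the table hold as many or more. Over exactly these 300 bases, Hoxb8 was at 10.3% and 16.7% in ASCs and 61.2% and 57.4% in EpiSCs. Hoxb1 was at 13.3% and 8.70% in ASCs and 48.4% and 44.4% in EpiSCs. Hoxa10 was at 2.75% and 3.45% in ASCs and 12.8% and 25.5% in EpiSCs, and Hoxd11 was under 1% in all 6 libraries. Hoxb8 rested on 15 to 49 observations a library and Hoxb1 on 23 to 48. Close to the start, the ASC levels of Hoxb8, Hoxb1 and Hoxa10 were thus lower than over the whole promoter. The same was true of their ESC levels, and of the EpiSC levels of Hoxb1 and Hoxa10.

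Profiles in windows of 500 bp, drawn for 4 genes that were chosen after their values were seen, show where the levels changed along the DNA. At Hoxb1, the window that begins 1000 bp before the start was at 64.3% and 65.6% in ASCs and 84.6% and 62.9% in EpiSCs. In the first 500 bp of the gene ASCs were at 7.27% and 21.6% and EpiSCs at 67.4% and 64.1%. The groups overlapped upstream and lay far apart in this first window. In the window that begins 1500 bp into the gene the ASC libraries were at 57.9% and 43.8% against 73.1% and 95.8% in EpiSCs. The order turned just past the gene, where the window that begins 3000 bp after the start was at 61.1% and 82.6% in ASCs against 5.56% and 10% in EpiSCs. At Hoxa10, the window that begins 1000 bp before the start was at 42.9% and 54.3% in ASCs and 75.6% and 77.4% in EpiSCs. The first 500 bp after the start were at 1.33% and 0% against 5.94% and 6.16%. At Hoxd4, the same upstream window was at 62.2% and 74.4% in ASCs and 34.1% and 49.3% in EpiSCs. Levels in the first 500 bp after the start were between 0% and 8.41% in all 6 libraries. At Hoxa10 and Hoxd4 both windows lie inside the gene body, whose span begins further upstream. These windows are not tested, and each value rests on at least 10 observations.

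**Figure D4:**
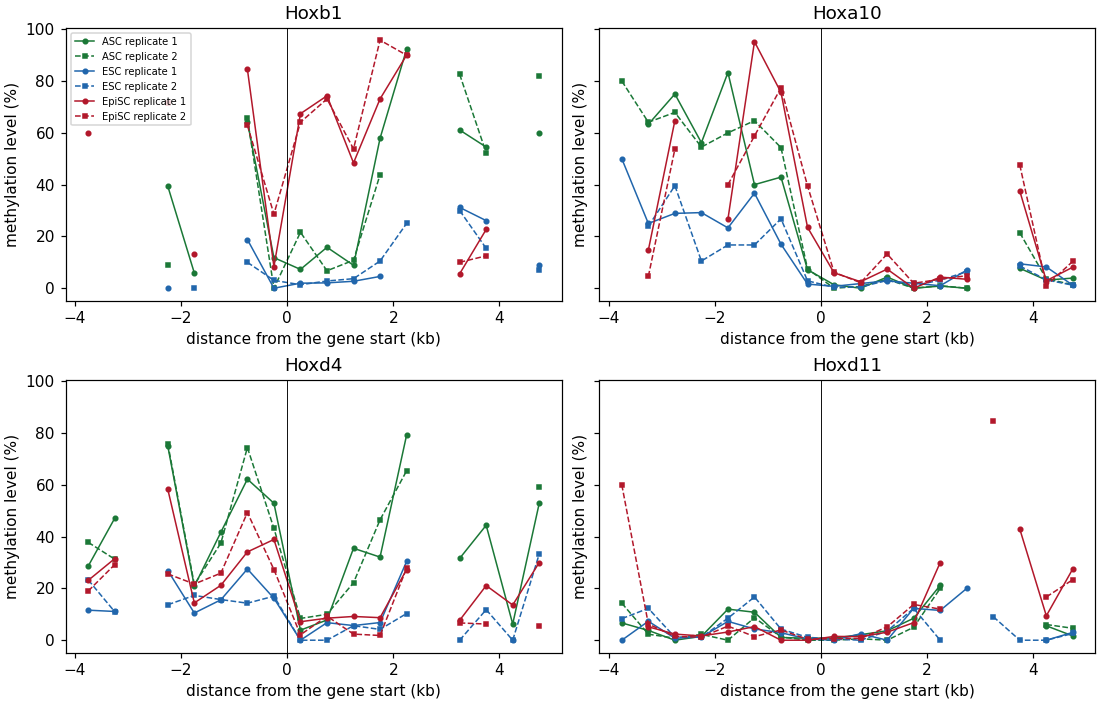
Methylation level (%) in windows of 500 bp against the distance in kb from the start of Hoxb1, Hoxa10, Hoxd4 and Hoxd11, with 1 line per library. Windows with fewer than 10 observations are left out. In the first 500 bp after the start only Hoxb1 shows EpiSC levels (67.4% and 64.1%) far above those of the ASC libraries.

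All 38 gene bodies were tested, and their median was below that of all gene bodies in each group of cells. They were not matched to other genes by length, CpG number or level. The median was 9.57% in ASCs and 4.19% in ESCs, against 11.7% in EpiSCs, beside 55.5%, 15.8% and 79.7% over all 19641 gene bodies. Between ASCs and EpiSCs, 3 Hox gene bodies were called lower in ASCs (54.7% of all gene bodies) and 0 higher (0.0255%). With no minimum difference, 12 were lower (93.5%) and 9 were higher (0.443%). In the genome 87 gene bodies were higher in ASCs by that rule, of which these were 9.

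**Figure D5:**
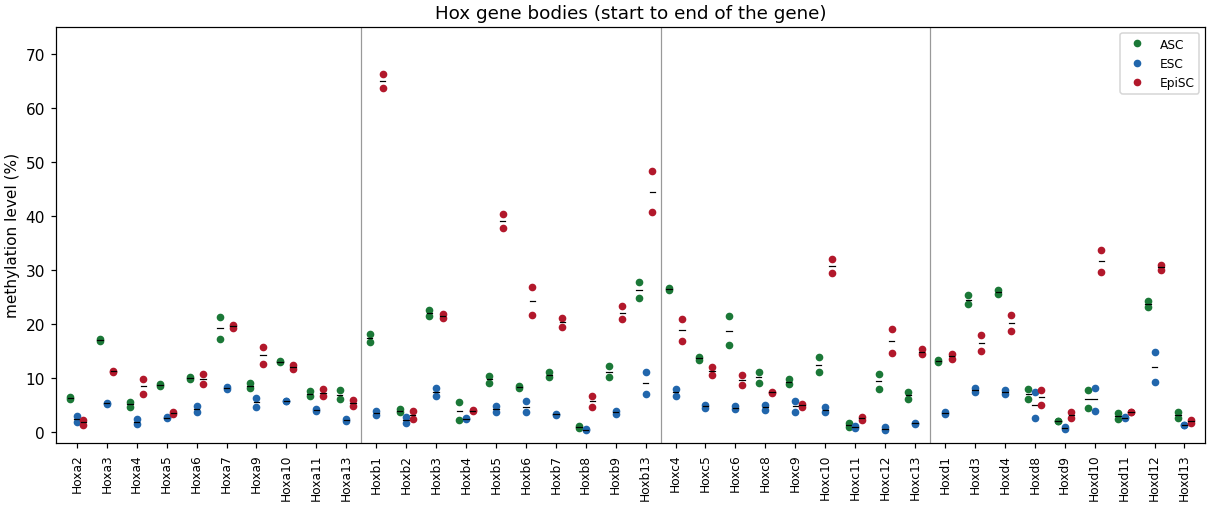
Methylation level (%) of each Hox gene body, ordered by cluster, in the 2 libraries of ASCs, ESCs and EpiSCs. Points are libraries and black bars are group means, and the EpiSC levels of Hoxb1 (63.6% and 66.3%) are the highest.

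The 9 gene bodies higher in ASCs were those of Hoxa2, Hoxa3 and Hoxa5, of Hoxc4, Hoxc5, Hoxc6 and Hoxc9, and of Hoxd3 and Hoxd4. Their differences ran from 2.27 points in Hoxc5 to 9.13 points in Hoxc6. Hoxc6 was at 16.1% and 21.4% in ASCs, 4.76% and 4.36% in ESCs, against 10.5% and 8.75% in EpiSCs (adjusted p = 0.000248). Hoxd3, which acts in the neck vertebrae, was at 23.7% and 25.3% in ASCs, 8.09% and 7.48% in ESCs, against 17.9% and 15% in EpiSCs (8.03 points, adjusted p = 2.93e-05). Hoxa3, needed for the thymus and parathyroid, was at 17.3% and 16.9%, 5.48% and 5.29%, and 11.1% and 11.4% (5.86 points, adjusted p = 1.74e-06). The ASC libraries were above all ESC and EpiSC libraries in each of these 3. The spans of 7 of the 9 genes overlap another of them, and the 9 form 5 separate stretches of DNA, so they are not 9 separate observations. By position, 3 of 7 anterior, 5 of 15 central and 1 of 16 posterior gene bodies were higher in ASCs, and none was in Hoxb.

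The called gene bodies were those of Hoxb1, Hoxb5 and Hoxd10. Hoxb1 (chr11:96365752-96368256) was at 18.2% and 16.7% in ASCs, 3.17% and 3.85% in ESCs, against 63.6% and 66.3% in EpiSCs (−47.5 points, adjusted p = 2.20e-08). Hoxb5 (chr11:96303336-96306121) was at 10.4% and 9.09%, 3.73% and 4.75%, and 40.3% and 37.8% (−29.3 points, adjusted p = 1.56e-07). Hoxd10, used in motor neurons of the hindlimb (chr2:74691924-74695105), was at 7.72% and 4.53%, 3.99% and 8.10%, and 29.7% and 33.7% (−25.6 points, adjusted p = 6.66e-06). At Hoxd10 the ASC and ESC libraries overlapped and both EpiSC libraries were far above them. Without the first 1000 bp of the gene its difference was −14.8 points (adjusted p = 0.00816), under the minimum for a call.

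Hoxc10 and Hoxb13 followed just under the minimum difference. Hoxc10, a gene of lumbar motor neurons (chr15:102966796-102971893), was at 13.9% and 11.1% in ASCs, 3.66% and 4.62% in ESCs, against 32.1% and 29.4% in EpiSCs (−18.3 points, adjusted p = 2.11e-05). Without its first 1000 bp Hoxc10 differed by −4.78 points and did not pass (adjusted p = 0.270). Hoxb13, known from the prostate (chr11:96194316-96197447), was at 27.8% and 24.9%, 11.2% and 7.06%, and 40.7% and 48.3% (−18.1 points, adjusted p = 0.000753), and was called without EpiSC replicate 1 (−21.9 points, adjusted p = 0.000192). In Hoxb, 7 of 10 gene bodies were lower in ASCs at an adjusted p under 0.05, where 93.5% of all gene bodies were, and the other 3, Hoxb2, Hoxb3 and Hoxb4, had differences between −0.0228 and 0.794 points that did not pass. Promoter and gene body of Hoxb8 differed, the body being at 0.679% and 1.23% in ASCs and 6.77% and 4.63% in EpiSCs.

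Between ASCs and ESCs, few Hox genes were called. Of the promoters, 3 were called higher in ASCs (17.3% of all promoters), those of Hoxd4, Hoxb1 (35.9 points, adjusted p = 0.000404) and Hoxc4 (20.9 points, adjusted p = 0.00190). With no minimum difference 12 were higher (35.9%). The 3 calls were lost in a window reaching 500 bp to either side of the start, where Hoxb1 differed by 11.7 points and Hoxd4 by 10.9 points. By the limma-moderated test 0 Hox gene bodies were called higher than in ESCs (86.8% of all gene bodies), and 29 of 38 were higher with no minimum difference (97.3%). The median difference was 5.62 points over Hox gene bodies and 38.5 points over all. A region under 20% in ASCs cannot be called higher than in ESCs. The median Hox gene body was at 9.57% in ASCs, beside 55.5% over all, so most of them could not be called. Many cluster tiles could not either, with a median of 18.7% in ASCs, beside 69.2% over all. Of the cluster tiles 73 of 216 were called higher in ASCs, as were 94 of 122 flank tiles (91.1% of all tiles), and with no minimum difference 175 cluster tiles and 118 flank tiles were higher (97.4%).

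Between EpiSCs and ESCs, Hoxb held most of the calls. In all 7 Hox promoters were called higher in EpiSCs (37.0% of all promoters), those of Hoxb1, Hoxb8, Hoxa10, Hoxc12, Hoxb5, Hoxb4 and Hoxd4, with differences from 20.8 to 53.4 points. The Hoxd4 difference of 20.8 points was under the minimum without ESC replicate 2 (18.1 points) and without EpiSC replicate 2 (19.7 points). Within 500 bp of the start it was 5.61 points (adjusted p = 0.105), and the calls of Hoxa10 (11.8 points) and Hoxc12 (18.9 points) were lost there too. Of the gene bodies 5 were called higher in EpiSCs (95.8% of all), those of Hoxb1, Hoxb13, Hoxb5, Hoxc10 and Hoxd10. Here too most Hox gene bodies could not be called, with a median of 11.7% in EpiSCs, beside 79.7% over all. With no minimum difference, 25 promoters (76.5%) and 29 gene bodies (99.1%) were higher in EpiSCs. In the clusters 79 of 216 tiles were called higher in EpiSCs (96.5% of all tiles), and 165 were higher with no minimum difference (99.4%). Of the 79 called, 51 were in Hoxb (77 tested). Of those 51, 27 lay in the stretch between Hoxb13 and Hoxb9 (30 tested), which holds no other Hox gene. Each group enters 2 of the 3 comparisons, so these share libraries.

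The non-coding genes of the clusters include microRNAs that lie between Hox genes or within their spans. The mature 5p arms of the miR-10 and miR-196 families and of miR-615 are shown here from RefSeq to set those that share a seed side by side. The seed (bases 2 to 8) is in capitals and is shared within each family, while miR-615 has a seed of its own.
miR-10a-5p (Hoxb, upstream of Hoxb4): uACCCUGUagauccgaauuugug
miR-10b-5p (Hoxd, in the spans of Hoxd3 and Hoxd4): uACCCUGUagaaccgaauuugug
miR-196a-5p (Hoxb and Hoxc): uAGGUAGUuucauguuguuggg
miR-196b-5p (Hoxa, in the span of Hoxa9): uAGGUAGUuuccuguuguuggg
miR-615-5p (Hoxc, in the span of Hoxc5): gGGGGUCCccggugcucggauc
The windows before the 3 miR-196 genes differed in level. Mir196a-1 in Hoxb was at 67.2% and 66.4% in ASCs, 21.6% and 23.2% in ESCs, against 63.9% and 63.1% in EpiSCs. Mir196a-2 in Hoxc was at 17.1% and 25.6%, 9.87% and 9.26%, and 25.6% and 13.4%. Mir196b in Hoxa was at 3.25% and 5.0%, 5.68% and 2.77%, and 7.37% and 5.67%. A shared seed thus went with levels from near 0 to over 60%. None of the 3 passed the test between ASCs and EpiSCs. Mir10b was at 32.6% and 31.4% in ASCs, 13.1% and 15.8% in ESCs, against 18.1% and 26.4% in EpiSCs (9.72 points, adjusted p = 0.0835), and Mir10a had fewer than 40 observations in a library. Mir615 was at 0% and 0.791% in ASCs, 0.858% and 0% in ESCs, against 4.26% and 5.05% in EpiSCs, and was lower in ASCs than in EpiSCs without reaching a call (−4.26 points, adjusted p = 0.00854).

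Of 13 non-coding genes listed, 11 were tested, and 1 was called higher in ASCs than in EpiSCs (0.166% of all promoters) and 1 lower (24.3%). Hoxb3os, antisense to Hoxb3 and on the DNA of the Hoxb tile called higher above, was higher, with 46.4% and 40% in ASCs, 12.2% and 15.2% in ESCs, against 20.5% and 18.7% in EpiSCs (23.6 points, adjusted p = 0.00326). Halr1, a long non-coding RNA gene beside Hoxa, was lower, with 50% and 46.4%, 6.54% and 10.6%, and 95.0% and 81.8% (−40.2 points, adjusted p = 0.00104). Against ESCs 4 of the 11 were called higher in ASCs (17.3% of all promoters), these 2 with Hoxb5os (32.0 points) and Mir196a-1 (44.4 points). Of 13 neighbouring protein-coding genes, 2 were called lower in ASCs than in EpiSCs, as were 24.3% of all promoters. They were Skap1 (−50 points) and Ttll6 (−34.8 points), both beside Hoxb. Against ESCs, 1 of the 13, Smug1, was called higher in ASCs (52.1 points), as were 17.3% of all promoters.

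Among 11 homeobox genes related to Hox, namely ParaHox and even-skipped genes with Gbx1, Gbx2 and Mnx1, 1 promoter was called higher in ASCs than in EpiSCs (0.166% of all promoters) and 1 lower (24.3%). Pdx1, the regulator of pancreas development, was at 35.6% and 32.1% in ASCs, 15.2% and 9.09% in ESCs, against 8.33% and 9.09% in EpiSCs (25.2 points, adjusted p = 0.00184). Cdx4, an upstream activator of Hox genes on the X chromosome, was at 22.7% and 32.5%, 2.74% and 4.26%, and 84.9% and 90.4% (−60 points, adjusted p = 1.38e-05). Both were also called higher in ASCs than in ESCs, by 21.7 and 24.1 points, which made 2 of 11 where 17.3% of all promoters were called. Of the TALE homeodomain cofactors that bind DNA with Hox proteins, 8 of 9 were tested, 0 were called between ASCs and EpiSCs in either direction by the limma-moderated test (24.3% of all promoters were called lower and 0.166% higher), and 2 were lower at an adjusted p under 0.05 with no minimum difference (51.3% of all). Against ESCs, 1 of the 8, Pknox2, was called higher in ASCs (21.2 points), as were 17.3% of all promoters. Of 15 Polycomb and trithorax regulators, 14 were tested, and Ezh1 (−23.5 points) and Men1 (−21.3 points) were called lower in ASCs than in EpiSCs, as were 24.3% of all promoters.

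The libraries held 63803799 to 74925271 CpG reads, a mean coverage of 2.96 to 3.46 reads a CpG, and within the clusters 43313 to 54885 observations. Counting error alone gives a level of 50% an interval (95%, Wilson) of 35.2% to 64.8% with 40 observations and of 45.1% to 54.9% with 400. The labels of EpiSCs were checked against those of ASCs and ESCs at promoters known to be open in naive cells and methylated in primed cells. Zfp42 was at 0% in both ASC and both ESC libraries and at 94.6% and 97.8% in EpiSCs, Tcl1 and Nanog were called lower in ASCs than in EpiSCs, and Dppa3 and Fbxo15 had fewer than 40 observations in a library. Pou5f1 and Sox2 were between 0% and 1.32% in all 6 libraries. These promoters do not tell ASCs from ESCs. The study itself reported Zfp42, Tcl1, Dppa3 and Fbxo15 as demethylated in ASCs, so the check is not independent of it.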

How the data were processed

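Whole-genome bisulfite libraries (post-bisulfite adaptor tagging) of ASCs, ESCs and EpiSCs, 2 each, were grouped by the sample labels. Per the study's methods and the submitters' processing notes, the authors trimmed reads with Trim Galore, aligned them to GRCm38 with Bismark 0.16.3, removed duplicates, and called each CpG, both strands merged, with MethPipe. The deposited tables give the methylation level of each CpG as a fraction of reads. A second deposited column gives the coverage, a raw count of reads. Methylated reads were the product of both, which lay within 0.000115 of a whole number. All 21327445 sites used, on chromosomes 1 to 19 and X, fell on a CpG of GRCm38. With a mean of at most 3.46 reads a CpG, single sites were too shallow, and reads at CpGs (observations) were summed over regions, with at least 40 in every library, the minimum of the study.

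Regions were promoters and bodies of GENCODE M21 genes and 2 kb tiles. All regions of a class were fitted together with a quasi-binomial logistic model of group over the 6 libraries. The dispersion was kept at 1 or above after moderation by limma (squeezeVar, version 3.58.1, under R 4.3.3) toward an estimate shared by the class. The shared estimate carried 7.38 degrees of freedom for promoters, 8.68 for gene bodies and 145 for tiles. Tile p-values thus rest mostly on counts of reads and a dispersion common to all tiles. Contrasts were tested with two-sided F tests, and p-values were adjusted by Benjamini-Hochberg over the class. A call needed an adjusted p under 0.05 and a difference of group means of at least 20 points. For levels of whole clusters, the F statistic was set against its exact permutation distribution. The model was tested on simulated promoter data in which few promoters changed, unlike in these data. Gene bodies and tiles were not simulated, so that test does not cover their fits.

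Members, gene lists and tests were chosen with earlier results of these data known. The rule for regions to describe took the 5 promoters and 5 gene bodies with the greatest difference between ASCs and EpiSCs, and the 5 highest and 3 lowest promoters in EpiSCs. It also took the 5 tiles with the greatest difference inside and in the flanks, the 3 tiles highest in ESCs, and listed genes called in a comparison with ASCs. Some of these are given by their difference only. 1 further Hox gene of Hoxa, with the stretch over it, is not reported here. Alternatives changed the minimum of observations, the call rule, the model, the window, the depth and the libraries.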

Additional observations from a re-analysis of the deposited data

How the results depend on the processing

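The counts of Hox promoters called between ASCs and EpiSCs (4), ASCs and ESCs (3) and EpiSCs and ESCs (7) were 2, 0 and 3 with a minimum of 100 observations, which left 23 promoters, and 16, 12 and 25 with no minimum difference, and 0, 0 and 2 with a minimum of 40 points. With a promoter reaching 500 bp to either side of the start, the last 2 counts were 0 and 4. For gene bodies, the counts of 3, 0 and 5 were 21, 29 and 29 with no minimum difference. With a minimum of 40 points, the first and last were 1 and 1. Without the first 1000 bp of each gene, the other 2 were 4 and 9, and with libraries thinned to the shallowest that between ASCs and ESCs was 1. For tiles of clusters and flanks together, 30, 40 and 49 were called with a minimum of 100 observations and 212, 296 and 282 with no minimum difference. With a minimum of 40 points, 7 were called between ASCs and EpiSCs and 87 between ASCs and ESCs, and with a minimum of 20 observations the latter was 251. By direction, a minimum of 100 observations left 3 cluster tiles and 5 flank tiles called higher, and 13 cluster tiles called lower, in ASCs than in EpiSCs (from 10, 9 and 28). These counts by direction were added after the data were seen. The lower counts with 100 observations come with fewer regions tested, and for the other changes the cause was not tested.

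Inside the clusters ASCs were at 18.3%, ESCs at 5.62% and EpiSCs at 18.4% as an unweighted mean over CpG sites with at least 5 reads, which left ASCs and EpiSCs at nearly the same level. As a median over tiles it was 18.5% in ASCs, 6.16% in ESCs, against 19.4% in EpiSCs, and over the tiles tested it was 18.7% in ASCs and 18.6% in EpiSCs. In the flanks the unweighted mean was 13.1% in ESCs and 50.3% in EpiSCs, and the median was 56.0%, 14.0% and 77.2%. Mean longest low runs in ASCs were 16 kb (Hoxa), 14 kb (Hoxb), 12 kb (Hoxc) and 25 kb (Hoxd) with low set at 25%, and in EpiSCs 21, 16, 13 and 17 kb. With low set at 10%, they were 11 kb (Hoxa) and 6 kb (Hoxb) in ASCs and 5 kb (Hoxb) and 7 kb (Hoxd) in EpiSCs. With tiles shifted by 1 kb, they were 9, 10 and 10 kb in Hoxa, Hoxb and Hoxc of ASCs and 12 kb in Hoxa of EpiSCs.

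Leaving out each library in turn gave 3 to 5, 3 to 4 and 6 to 8 promoters, 3 to 4, 0 to 0 and 5 to 7 gene bodies, and 85 to 96, 159 to 185 and 171 to 188 tiles for the 3 comparisons, the lone library of a group being assumed to vary like the others. The promoters lower in ASCs than in EpiSCs at an adjusted p under 0.05 numbered 9 to 12, the gene bodies higher in ASCs 8 to 9, and the cluster tiles called higher in ASCs 9 to 13. With limma on M values 3, 3 and 7 promoters and 3, 0 and 5 gene bodies were called, with 0 of either higher in ASCs than in EpiSCs. With the replicate number as a block, 9 gene bodies stayed higher in ASCs, the same 9, and 11 promoters were lower in place of 14. Same-numbered libraries showed no shared deviation across regions (correlations from -0.012 to 0.01). At this depth the correlation can miss a weak shared effect, and it leaves out any shift common to all regions. It therefore does not exclude that the numbers pair the samples. Of the values of named genes under the alternatives, 500 kept their side of the call rule, 16 were no longer called, 6 were newly called, and none that was called changed sign. Differences near 0 that did not pass could change sign, as at the Hoxd11 promoter between ASCs and EpiSCs (−0.354 points, and 0.0920 without EpiSC replicate 2) and the Hoxd10 body between ASCs and ESCs (0.0795 points, and −1.51 and −1.98 without ASC replicate 1 and ESC replicate 1). With about 3 reads a CpG, promoters with few CpG have wide intervals.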
